A study of Mus musculus with 3 samples.

Results

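The transforming growth factor beta (TGF-beta) and bone morphogenetic protein (BMP) family of ligands, receptors and Smad proteins was followed through RNA-seq of pancreatic islets from male C57BL/6 mice. The members were the protein-coding genes whose symbols name a Tgfb, Bmp, Gdf, inhibin or activin chain, a Tgfb, BMP or activin receptor, a Smad, or a secreted antagonist such as Nog, Grem1, Chrd or Fst. The rule reads gene names and no measured value, though the family was picked with earlier results of these data known, and 46 of the 24119 genes in the 3 deposited tables met the rule. The ND group was given a diet named ND in the labels and DMSO by gavage, the HFD_DMSO group a diet named HFD and DMSO, and the HFD_CGP group the diet named HFD and CGP 57380. CGP 57380 is a small-molecule inhibitor of the MAP kinase-interacting kinases (MNK), given here by gavage for 1 month. The labels also give 4 months, without stating whether that was age or time on a diet, and they do not give the number of mice behind a library.

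Ligands of the family are secreted dimers that bring together type II and type I serine/threonine kinase receptors, and the type II receptor phosphorylates the type I receptor. TGF-beta and activin receptors then phosphorylate Smad2 and Smad3, and BMP receptors phosphorylate Smad1, Smad5 and Smad9. These pair with Smad4 and act on genes in the nucleus, while Smad6 and Smad7 inhibit the signal. In the pancreas the family is known for roles in islet development, in beta cell maturity and insulin release, and in the matrix made by stromal cells.

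Each group was 1 library, so the differences below had no replicate check, compare libraries and not conditions, and carry no p-value. The libraries held 17129064 reads (ND), 16297563 reads (HFD_DMSO) and 17623848 reads (HFD_CGP), recovered from the deposited values. The libraries stood apart in their makeup. Ins1 and Ins2, the insulin genes, took 15.32% of the reads in ND, 43.5% in HFD_DMSO and 19.09% in HFD_CGP, and all 13 islet markers had reads in every library. The 7 acinar markers summed to 9960 CPM in ND, 2860 in HFD_DMSO and 51.2 in HFD_CGP. In these marker sums, CPM are reads scaled to the library total multiplied by a TMM normalization factor. That factor was 1.126 in ND, 0.775 in HFD_DMSO and 1.146 in HFD_CGP. The 10 stromal markers summed to 177 CPM in ND, 642 in HFD_DMSO and 264 in HFD_CGP, and the 8 endothelial markers to 280, 510 and 614 CPM in the same order. The 7 leukocyte markers summed to 76.4, 156 and 116 CPM, and the 7 duct markers to 485, 873 and 531 CPM. No marker of these lists was at 0 in any library. Fold changes also moved with the GC content of the transcript. In HFD_DMSO against ND, the median log2 fold change was -0.98 in the lowest of 20 GC bins of genes and 0.87 in the highest, and in HFD_CGP against ND it was -0.80 and 0.85. In HFD_CGP against HFD_DMSO the medians were 0.07 and -0.07. The part of these shifts in the results below was not tested, except that each call was repeated after subtracting the median of its GC bin.

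A gene was called higher or lower when the libraries, scaled by TMM factors, differed by at least 2-fold, when the exact 95% counting interval of the log2 fold change excluded 0 and when the pair held at least 10 reads. Intervals cover counting error only, not the spread between animals. In HFD_DMSO against ND, 13 of the 38 members that passed the minimum were higher (34.2%) and 8 were lower (21.1%), where 19.8% of all genes passing it were higher and 20.9% lower. Called in either direction were 55.3% of those members and 40.8% of all genes. The members' median log2 fold change was -0.08, near the -0.04 of the 14402 protein-coding genes that passed. The GC-corrected folds called 12 members up and 3 down, against 16.4% and 15.1% of all genes. In the authors' deposited table, whose call is an adjusted p-value below 0.05 without replicates, 13 members were higher and 8 lower, against 12.6% and 13.2% of all its genes, or 25.8% in either direction. Bmp4, Bmp7 and Gdf10 passed the read minimum only through the libraries in which they were high, so their differences follow from passing.

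The higher members were ligands, inhibitory or TGF-beta-side Smads and a pair of receptors, and most of the lower ones were type I receptors. By role, 3 of 3 TGF-beta ligands, the inhibin chains Inha and Inhbb, the BMP ligands Bmp4 and Bmp7, and the ligands Gdf10 and Gdf15 were higher in HFD_DMSO than in ND. The receptors Acvrl1 and Tgfbr2 and the Smads Smad3 and Smad6 were higher as well. Lower were the type I receptors Acvr1, Acvr1c, Bmpr1a, Bmpr1b and Tgfbr1, the type II receptor Acvr2a, the ligand Bmp3 and Smad2. The antagonist Chrd was not called.

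**Figure D1:**
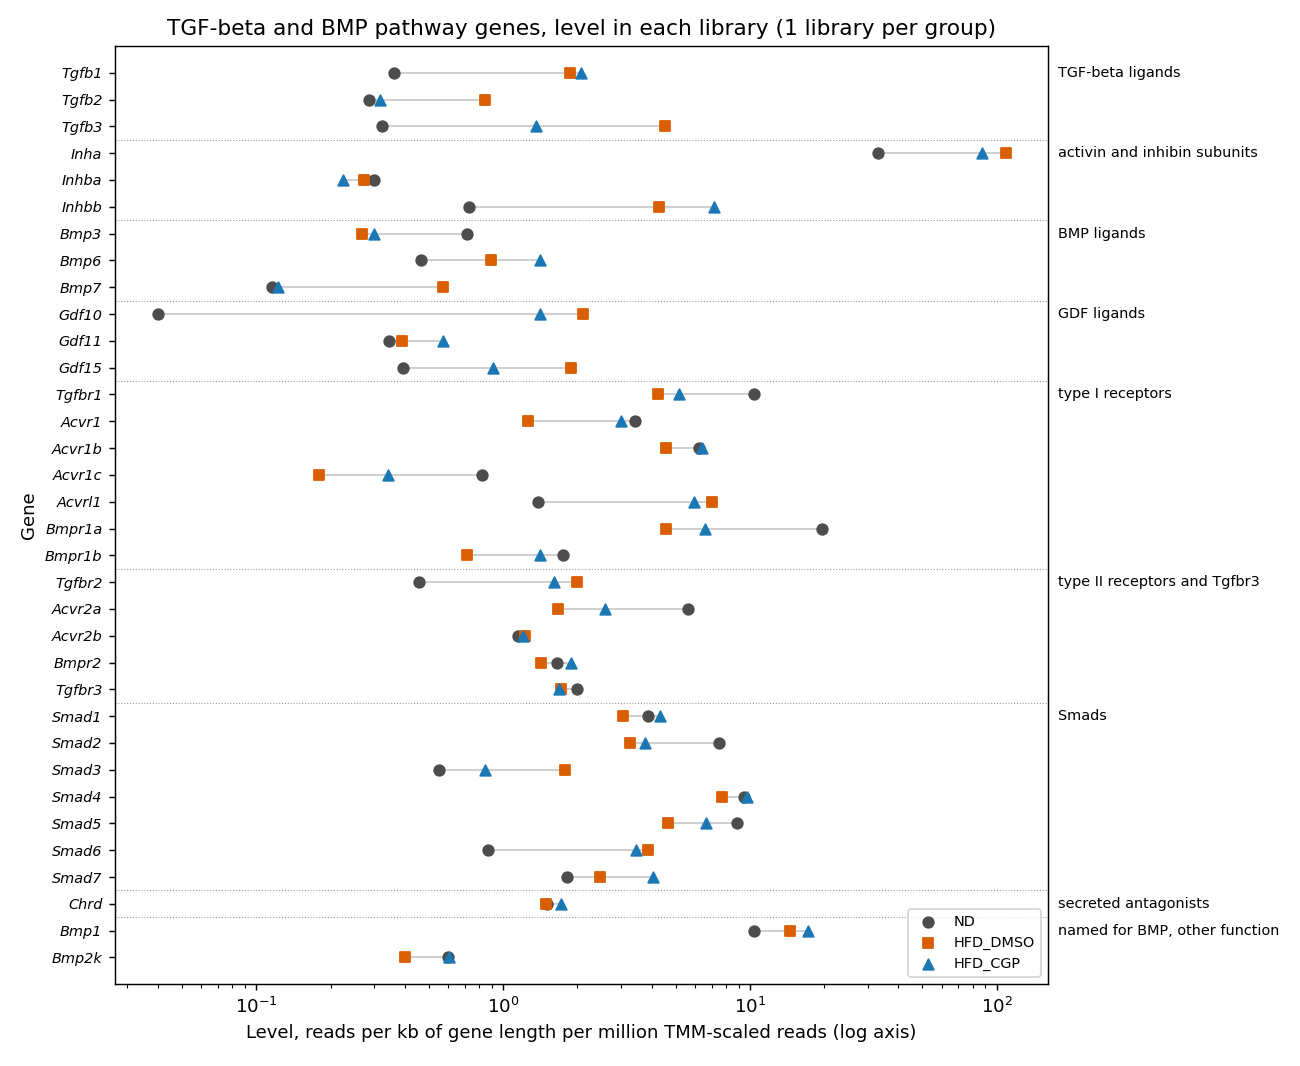
Level of 34 members with at least 20 reads in some library, as CPM per kb of gene length with TMM scaling, on a log axis, 1 point per library. Inha stands highest in all 3 libraries, at 33.0 in ND, 109 in HFD_DMSO and 86.9 in HFD_CGP, and Gdf10 is lowest in ND, at 0.0398.

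Per gene length, the family's most abundant transcript in each library was Inha, the inhibin alpha chain, which pairs with a beta chain to form an inhibin that opposes activin. Levels here are RPKM, that is CPM per kb of gene length, with libraries scaled by TMM. In ND the next were Bmpr1a at 19.6 RPKM, then Tgfbr1 and Bmp1 at 10.4 RPKM each, Smad4 at 9.5 RPKM and Smad5 at 8.85 RPKM. In HFD_DMSO the order below Inha was Bmp1 at 14.6 RPKM, Smad4 at 7.72 RPKM and Acvrl1 at 7.02 RPKM. In HFD_CGP it was Bmp1 at 17.2 RPKM, Smad4 at 9.71 RPKM, Inhbb at 7.19 RPKM, Smad5 at 6.67 RPKM and Bmpr1a at 6.59 RPKM. With 1 library each, no spread separates neighbours in these orders. Bmpr1a was thus second in ND, and in both libraries from mice on the diet named HFD it stood below Bmp1 and Smad4.

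The TGF-beta ligands, which drive matrix synthesis and restrain growth in many cell types, were all higher in HFD_DMSO than in ND. Tgfb3 (ENSMUSG00000021253, chr12:86056745-86079041, minus strand) had 21 reads in ND, 194 in HFD_DMSO and 93 in HFD_CGP. ND was lowest and HFD_DMSO highest, with a log2 fold change of 3.81 (interval 3.17 to 4.54) for HFD_DMSO over ND. Tgfb1 (ENSMUSG00000002603, chr7:25687002-25705077, plus strand) had 35, 119 and 210 reads in that order, a log2 fold change of 2.37 (1.82 to 2.96) for HFD_DMSO over ND. Tgfb2 had 32, 62 and 37 reads, a log2 fold change of 1.56 (0.93 to 2.23). The HFD_CGP library was not alike for the 3 ligands. Relative to HFD_DMSO, the HFD_CGP library was lower for Tgfb3 (log2 fold change -1.82, -2.20 to -1.46) and Tgfb2 (-1.51, -2.14 to -0.90), while Tgfb1 was at 0.05 (-0.28 to 0.39). With library totals Tgfb2 was at -0.86, under 2-fold, and the authors' deposited table did not call it. Against ND, HFD_CGP was higher for Tgfb1 (2.52) and Tgfb3 (2.08, 1.39 to 2.84), and Tgfb2 was at 0.14. Stromal marker sums were likewise highest in HFD_DMSO, and their part in the TGF-beta values was not tested. In such bulk libraries, fewer cells of a type and less RNA per cell cannot be told apart. Exons of Tgfb3 overlap other annotated transcripts on the other strand over 7.6% and 4.8% of their bases, and whether counting used strand is not given in the sources used here.

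Among the activin and inhibin chains, Inha had 940 reads in ND, 2040 in HFD_DMSO and 2589 in HFD_CGP. Its log2 fold change was 1.73 (1.62 to 1.84) for HFD_DMSO over ND, and 0.80 after the GC correction, under the 2-fold threshold. Inhbb (ENSMUSG00000037035, chr1:119415465-119422248, minus strand), the beta-B chain of activin B, had 60, 230 and 618 reads. It was lowest in ND and highest in HFD_CGP, at 2.55 (2.13 to 2.98) for HFD_DMSO over ND and 3.30 (2.92 to 3.71) for HFD_CGP over ND. Its step from HFD_DMSO to HFD_CGP, at 0.66 (0.44 to 0.89), was under 2-fold. Inhba, the beta-A chain, had 37, 22 and 29 reads, and its interval spanned 0 in each comparison.

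The BMP ligands were scarce. Bmp4 had 0 reads in ND, 17 in HFD_DMSO and 11 in HFD_CGP. With ND set to a floor of 3 reads, it was 8.65-fold higher in HFD_DMSO and 3.5-fold higher in HFD_CGP. These ratios leave out counting error. The lower ends of the counting intervals were 2.66 and 1.26 on the log2 scale, which are smaller ratios. Bmp7 had 9, 29 and 10 reads in ND, HFD_DMSO and HFD_CGP, so that HFD_DMSO stood alone. In HFD_DMSO against ND, Bmp7 passed the read minimum only through HFD_DMSO, so the size of that ratio is a description. Its log2 fold change was 2.28 (1.18 to 3.56) for HFD_DMSO over ND and -2.28 (-3.50 to -1.22) for HFD_CGP over HFD_DMSO. Bmp3, which in mouse bone acts against osteogenic BMPs, ran the other way with 102, 25 and 45 reads. Its log2 fold change was -1.41 (-2.11 to -0.78) for HFD_DMSO over ND, and -0.74 after the GC correction. Bmp6, a regulator of hepcidin in liver, had 35, 44 and 111 reads and was called only in HFD_CGP over ND (1.60, 1.04 to 2.19), a call that ended with the GC correction at 0.78.

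Among the GDF ligands, Gdf10, also known as BMP3b, had 4 reads in ND, 138 in HFD_DMSO and 148 in HFD_CGP. It passed the read minimum only through HFD_DMSO and HFD_CGP, so the size of its ratio is a description. Both libraries of mice on the diet named HFD were high, at log2 fold changes of 5.67 (4.33 to 7.62) and 5.10 (3.76 to 7.04) over ND, which share the ND library and its 4 reads. Gdf15, a stress-induced hormone that acts on appetite through the receptor GFRAL, had 14, 44 and 34 reads. It was 2.25 (1.37 to 3.25) higher on the log2 scale in HFD_DMSO than in ND. The HFD_CGP library was at -1.13 (-1.83 to -0.46) relative to HFD_DMSO. With library totals the latter was -0.48, under 2-fold, and the authors' deposited table did not call it. Gdf11, a ligand of the activin receptors, had 27, 20 and 47 reads and was called in no comparison.

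Gdf10 and the receptor gene Bmpr1a lie on the same chromosome, and their promoters are shown as examples of a member that was higher and of one that was lower than ND, chosen after their values were seen. Each sequence covers 250 bases before and 50 after a RefSeq start site on GRCm38.p6, read along the gene's strand, with the motif GGCGCC, a BMP-Smad type of GC-rich element, in capitals. Gdf10 is at chr14:33923337-33923636, plus strand. Bmpr1a is at chr14:34502497-34502796, minus strand, at a RefSeq start inside the gene span of the deposited tables.
Gdf10: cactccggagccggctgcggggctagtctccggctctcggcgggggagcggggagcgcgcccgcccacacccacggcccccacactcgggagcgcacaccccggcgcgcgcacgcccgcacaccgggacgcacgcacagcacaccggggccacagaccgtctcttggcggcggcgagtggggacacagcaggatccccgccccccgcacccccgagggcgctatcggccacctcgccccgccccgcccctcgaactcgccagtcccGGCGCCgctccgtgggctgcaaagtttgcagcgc
Bmpr1a: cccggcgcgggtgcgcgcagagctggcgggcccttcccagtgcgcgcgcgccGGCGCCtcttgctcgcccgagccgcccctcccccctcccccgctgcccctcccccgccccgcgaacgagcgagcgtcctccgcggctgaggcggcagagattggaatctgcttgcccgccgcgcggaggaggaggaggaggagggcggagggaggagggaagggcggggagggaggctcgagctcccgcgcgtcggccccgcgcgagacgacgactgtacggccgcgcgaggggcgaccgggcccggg
The Gdf10 sequence holds 42 CpG pairs at 77.3% GC, and that of Bmpr1a 48 at 79.3% GC. These genes differed from ND in opposite directions, and their promoters were alike in composition. Promoter composition was not compared by direction over the other called members. Of the 46 members 31 matched the RefSeq table, with 38 promoters. GGCGCC, which reads the same on both strands, was in 11 of these 38 (28.9%) and in 11.9% of all 32851 promoters. The members' promoters had a median of 27 CpG pairs and 65.6% GC, where all promoters had 7 and 52.7%. CAGACA, the CAGA box of TGF-beta response elements, was found on either strand in 13.2% of the members' promoters and 21.0% of all, and TGACTCA, the AP-1 letters, in 0 of the members' and 5.2% of all. These matches describe letters and not bound sites.

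**Figure D2:**
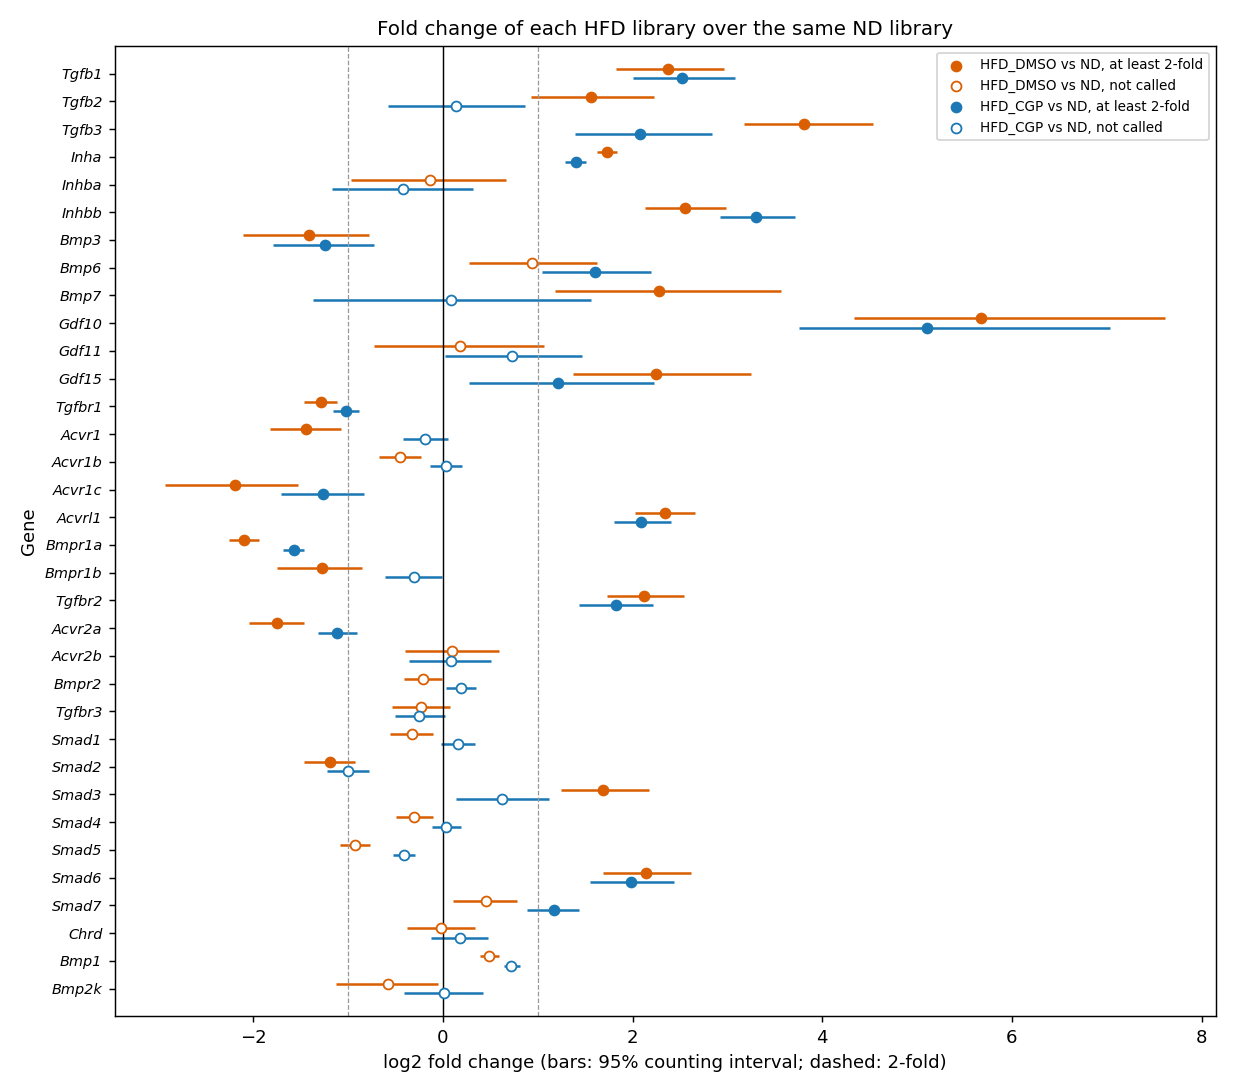
Log2 fold change over ND of 34 members with at least 20 reads in some library, in HFD_DMSO and HFD_CGP, with 95% counting intervals, both comparisons sharing the ND library. Filled points meet the 2-fold rule, from Gdf10 at 5.67 down to Acvr1c at -2.19 in HFD_DMSO.

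The type I receptors divided by member. Bmpr1a (ENSMUSG00000021796, chr14:34410734-34503341, minus strand), a BMP receptor present in beta cells, had 2403 reads in ND, 368 in HFD_DMSO and 845 in HFD_CGP. ND was far the highest, with log2 fold changes of -2.10 (-2.26 to -1.94) for HFD_DMSO and -1.57 (-1.69 to -1.46) for HFD_CGP over ND. After the GC correction these were -1.26, still a call, and -0.91, no longer one. Tgfbr1, the TGF-beta type I receptor, had 1316, 352 and 679 reads, at -1.29 (-1.47 to -1.12) for HFD_DMSO over ND. Its GC-corrected value of -0.35 was not a call. Acvr1c, the receptor ALK7 for activin B and related ligands, had 147, 21 and 64 reads, at -2.19 (-2.93 to -1.53) and -1.25 after the correction.

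Acvr1, the receptor ALK2, had 319 reads in ND, 77 in HFD_DMSO and 293 in HFD_CGP, so that HFD_DMSO alone was low. It was at -1.44 (-1.82 to -1.08) for HFD_DMSO over ND, at 1.16 (0.80 to 1.54) for HFD_CGP over HFD_DMSO and at -0.19 for HFD_CGP over ND. Bmpr1b, another BMP receptor, had 201, 54 and 170 reads. It showed the same order, but its -1.28 for HFD_DMSO over ND became -0.45 after the GC correction, and its 0.89 (0.44 to 1.36) for HFD_CGP over HFD_DMSO was under 2-fold. Acvr1b, the activin receptor ALK4, had 533, 256 and 569 reads and was called in no comparison.

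Acvrl1 (ENSMUSG00000000530, chr15:101128522-101145336, plus strand), the endothelial receptor ALK1, was the type I receptor that ran the other way. It had 114 reads in ND, 378 in HFD_DMSO and 510 in HFD_CGP, at 2.34 (2.03 to 2.66) and 2.09 (1.80 to 2.40) on the log2 scale over ND, and 1.62 and 1.43 after the GC correction. Its RPKM was 1.39 in ND, where Bmpr1a was at 19.6, and 7.02 in HFD_DMSO, where Bmpr1a was at 4.59. The endothelial marker sum was also lowest in ND and 3 of its 8 genes were called higher in HFD_DMSO, none lower, with Pecam1 at -0.12 and Kdr at 0.63. The part of endothelial cells in the Acvrl1 values was not tested.

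Of the type II receptors, Tgfbr2, which binds TGF-beta, had 72 reads in ND, 206 in HFD_DMSO and 266 in HFD_CGP. It was higher over ND in both, at 2.12 (1.73 to 2.54) and 1.82 (1.44 to 2.22). Acvr2a, an activin receptor, had 615, 120 and 297 reads, at -1.75 (-2.04 to -1.46) and -1.12 (-1.32 to -0.91) over ND, and -0.80 and -0.38 after the GC correction. In HFD_DMSO against ND the receptors for TGF-beta itself thus moved apart, Tgfbr2 higher and Tgfbr1 lower, though the Tgfbr1 call ended with the GC correction. Exons of Acvr2a overlap those of Orc4 on the other strand over 7.8% of their bases. Acvr2b (87, 61 and 96 reads), Bmpr2 (571, 324 and 682 reads) and the coreceptor Tgfbr3, or betaglycan (253, 141 and 223 reads), were not called in any comparison.

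Among the Smads, the TGF-beta and activin effectors Smad2 and Smad3 differed in direction. Smad3 had 59 reads in ND, 125 in HFD_DMSO and 95 in HFD_CGP. It was at 1.69 (1.24 to 2.17) for HFD_DMSO over ND and -1.16 (-1.56 to -0.76) for HFD_CGP over HFD_DMSO. With library totals the latter was -0.51, under 2-fold, and the authors' deposited table did not call it. Smad2 had 513, 147 and 269 reads, at -1.19 (-1.47 to -0.93) for HFD_DMSO over ND and -0.66 after the GC correction. Per gene length Smad2 exceeded Smad3 in every library, at 7.49 against 0.552 RPKM in ND and 3.28 against 1.79 RPKM in HFD_DMSO.

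Smad6, which inhibits BMP signals and is itself a BMP target, had 54 reads in ND, 156 in HFD_DMSO and 224 in HFD_CGP. ND was the low library, at 2.14 (1.69 to 2.62) and 1.98 (1.55 to 2.44) over it. Smad7, an inhibitor of TGF-beta and BMP signals, had 158, 141 and 371 reads and was called only in HFD_CGP over ND (1.17, 0.89 to 1.44), a call that ended with the GC correction at 0.50. In HFD_DMSO over ND its value of 0.45 turned to -0.09 when library totals were used. The shared partner Smad4 had 680, 362 and 728 reads, and the BMP effectors Smad1 and Smad5 had 467, 243 and 546 and 1266, 435 and 999 reads. None of these 3 was called in any comparison, with Smad5 nearest at -0.93 (-1.09 to -0.77) for HFD_DMSO over ND.

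The antagonist Chrd, or chordin, which binds BMPs outside the cell, had 170, 110 and 201 reads. Its log2 fold change for HFD_DMSO over ND, -0.02 (-0.38 to 0.34), had an interval spanning 0. Bmp1 is a metalloprotease that processes procollagen and chordin, and Bmp2k a kinase named for its induction by BMP2. Bmp1 had 1785, 1639 and 3081 reads and Bmp2k 98, 43 and 103 reads, and neither was called. A further 11 members, Bmp2, Bmp4, Bmp5, Bmp8a, Bmp15, Gdf3, Gdf6, Gdf9, Smad9, Fst and Grem1, held fewer than 20 reads in every library. Among them 2 were called in any comparison, Bmp4 as given and Bmp2 below. A floor of 3 reads was 0.175, 0.184 and 0.170 CPM in ND, HFD_DMSO and HFD_CGP, here scaled to library totals without TMM.

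**Figure D3:**
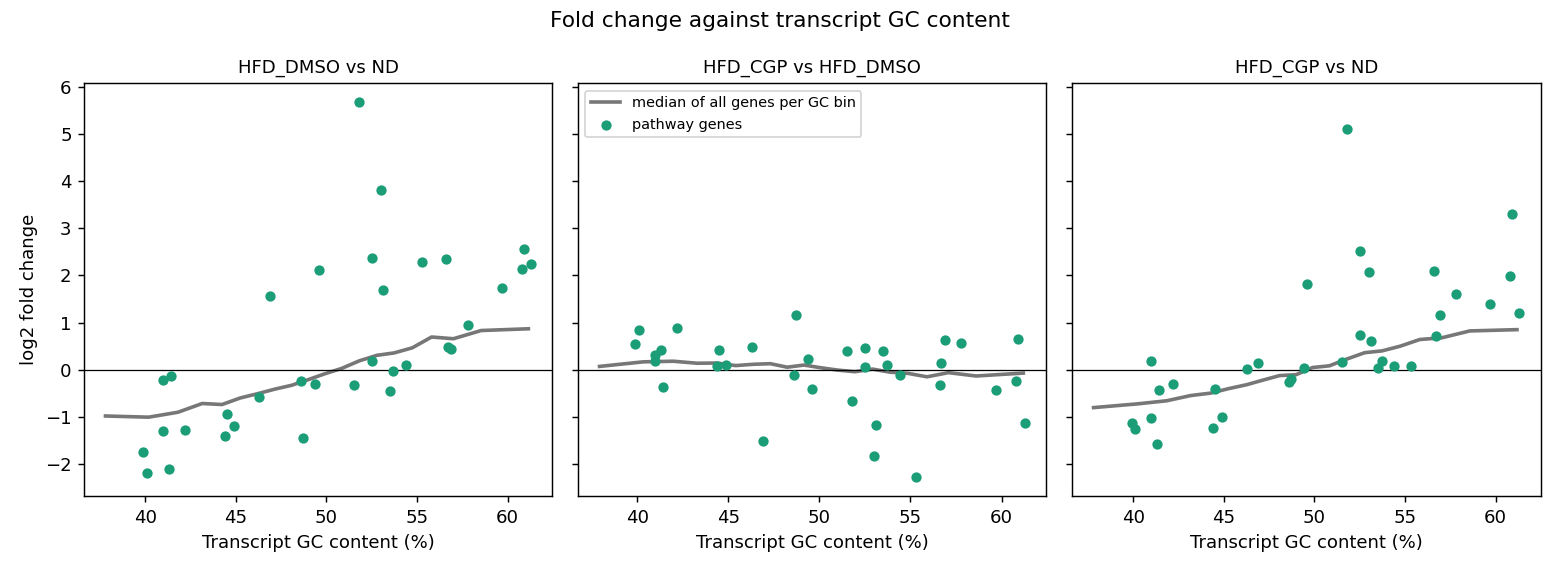
Log2 fold change against the GC content of the transcript (percent) for 34 members with at least 20 reads in some library, with a panel for each comparison and a line for the median of all genes per GC bin. In HFD_DMSO against ND the 8 lower members lie between 39.9% and 48.7% GC and the higher ones between 46.9% and 61.3%.

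The direction of a member's difference from ND went with its GC content. In HFD_DMSO against ND the 13 higher members had a median of 53.1% GC and the 8 lower members 41.7%, while all protein-coding genes called higher had 54.3% and those called lower 44.3%. The members that kept a lower call after the GC correction were Acvr1, Acvr1c and Bmpr1a. Of the 13 higher members only Inha lost its call.

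In HFD_CGP against HFD_DMSO, which addresses the kinase inhibitor on the diet named HFD, fewer members differed. Of 40 members that passed the minimum, 2 were higher (5.0%) and 6 lower (15.0%), near the 6.42% and 11.9% of all genes, and 8 were called in either direction, where 18.3% of all genes were. The lower members were Tgfb2, Tgfb3, Bmp4, Bmp7, Gdf15 and Smad3, all of them higher in HFD_DMSO than in ND, a comparison that shares the HFD_DMSO library. Acvr1 was higher, and so was Bmp2, with 8 reads in ND, 3 in HFD_DMSO and 18 in HFD_CGP (log2 fold change 1.79, 0.04 to 4.23), a gene that passed the read minimum through HFD_CGP. The members' median was 0.13, where protein-coding genes had 0.05. These calls rested on the scaling: with library totals, which move every log2 fold change by 0.65, 16 members were higher and 2, Tgfb3 and Bmp7, lower. With totals that leave out Ins1 and Ins2, 3 were higher and 5 lower. By the calls in the authors' deposited table, 0 members were higher and 2 lower, Tgfb3 and Bmp7, against 1.4% and 4.95% of all its genes, or 6.35% in either direction. Stromal markers were lower in HFD_CGP than in HFD_DMSO for 7 of 10 genes, with a median of -2.10, and duct markers for 5 of 7. Their part in the members' values was not tested.

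**Figure D4:**
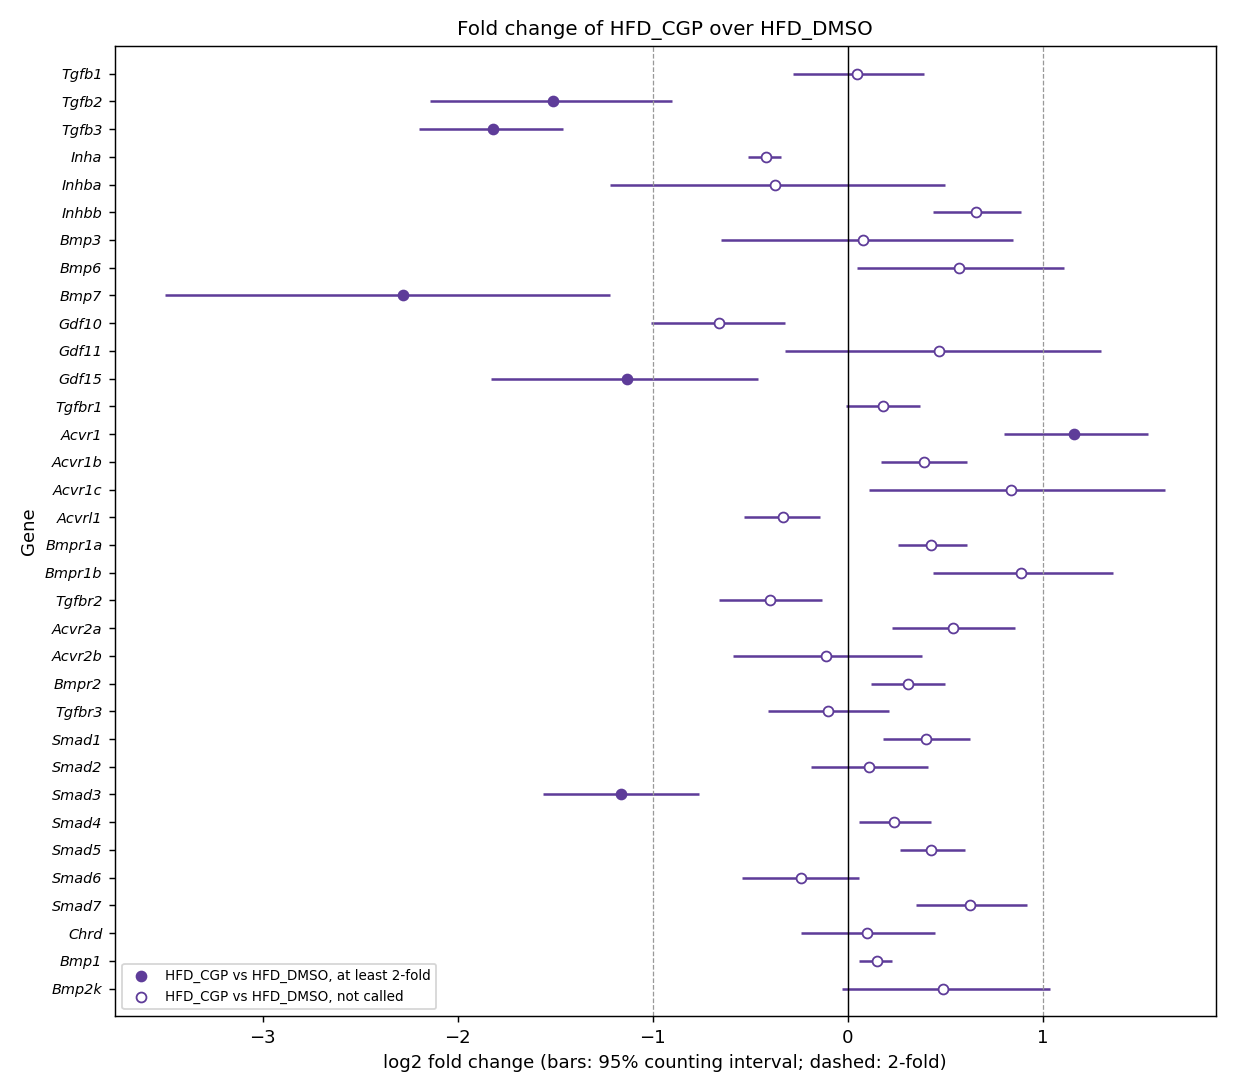
Log2 fold change of HFD_CGP over HFD_DMSO for 34 members with at least 20 reads in some library, with 95% counting intervals. Filled points meet the 2-fold rule, with Bmp7 at -2.28 and Tgfb3 at -1.82 lowest and Acvr1 at 1.16 the filled point above 0.

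In HFD_CGP against ND, where diet and inhibitor both differed, 12 of 40 members that passed the minimum were higher and 5 lower, where 13.1% and 12.5% of all genes were. Called in either direction were 42.5% of those members and 25.6% of all genes. Higher were Tgfb1, Tgfb3, Inha, Inhbb, Bmp4, Bmp6, Gdf10, Gdf15, Acvrl1, Tgfbr2, Smad6 and Smad7, and lower were Bmp3, Acvr1c, Bmpr1a, Tgfbr1 and Acvr2a. The lower members made 12.5% of those that passed, equal to the background. The GC-corrected folds called 8 up and 0 down, against 8.47% and 7.91% of all genes, and the calls for Inha, Bmp6, Gdf15 and Smad7 ended together with the 5 lower ones. By the calls in the authors' deposited table, 10 members were higher and 1, Bmpr1a, was lower, against 4.57% and 4.36% of all its genes, or 8.93% in either direction. Smad2, with an interval of -1.22 to -0.78, was just short of the 2-fold threshold. The median of the members was 0.18, and that of protein-coding genes 0.05.

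Other genes of the pathway were read from lists chosen by function. Among list genes called higher than ND, Itgb6, Fbn2, Amh, Amhr2, Bmper and Htra1 held 5, 7, 8, 4, 5 and 3 reads in ND. They passed the read minimum only through a library in which they were high, and are named after their values were seen. The shares of all genes called higher and lower were 19.8% and 20.9% in HFD_DMSO against ND, 6.42% and 11.9% in HFD_CGP against HFD_DMSO, and 13.1% and 12.5% in HFD_CGP against ND, or 16.4% and 15.1%, 6.42% and 11.8%, and 8.47% and 7.91% with the GC correction. Of 14 genes that store or activate latent TGF-beta and passed the minimum, 10 were higher and 1 lower in HFD_DMSO than in ND, at a median of 1.51 on the log2 scale. Once GC-corrected, 7 were up and 0 down. Mmp14, a membrane metalloprotease, had 19 reads in ND, 480 in HFD_DMSO and 140 in HFD_CGP, and Fbn1, the microfibril protein fibrillin-1, had 14, 103 and 47. Both were highest in HFD_DMSO, as was Tgfb3. Thbs1, thrombospondin-1, an activator of latent TGF-beta, had 289, 677 and 1006 reads. With TMM scaling its log2 fold change was 1.84 (1.64 to 2.04) for HFD_DMSO over ND. For HFD_CGP over HFD_DMSO it was -0.19 (-0.34 to -0.05), under 2-fold. In HFD_CGP against HFD_DMSO, 1 of 14 was higher, the protease Furin, and 4 were lower, with a median of -0.47. In HFD_CGP against ND 7 of 15 were higher and 1 lower, 3 and 0 once GC-corrected, and the authors' deposited table called 4 higher and 1 lower.

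Among coreceptors and other ligands, 4 of 7 were higher and 1 lower in HFD_DMSO than in ND, and 2 and 1 once GC-corrected. Eng, or endoglin, the endothelial coreceptor that works with Acvrl1, had 307 reads in ND, 1699 in HFD_DMSO and 2192 in HFD_CGP. Unscaled reads of Acvrl1 had the same order. With TMM scaling, HFD_CGP over HFD_DMSO was at -0.40 (-0.49 to -0.31) for Eng and -0.33 (-0.53 to -0.14) for Acvrl1, both under 2-fold. Lefty1, an inhibitor of Nodal, had 248, 57 and 168 reads. In HFD_CGP 0 were higher and 1 was lower than in HFD_DMSO, and 2 were higher and 0 lower than in ND, or 3 and 1 with the correction. Of 14 secreted antagonists and modulators 8 were higher and 2 lower in HFD_DMSO than in ND, 5 and 1 once GC-corrected. Of the 13 that passed in HFD_CGP against HFD_DMSO, 1 was higher and 5 were lower, 2 and 5 with the correction. In HFD_CGP against ND 7 of 14 were higher and 2 lower, 3 and 2 with the correction. Decorin (Dcn), a matrix proteoglycan that binds TGF-beta and also a stromal marker, had 53, 1536 and 588 reads. Of 14 intracellular regulators 2 were higher and 4 lower in HFD_DMSO than in ND, shares near those of all genes, and 2 and 1 once GC-corrected. In HFD_CGP 0 were higher and 1 lower than in HFD_DMSO, 1 and 1 with the correction, and 1 was higher and 1 lower than in ND, 1 and 0 with it. The corepressor Tgif1 had 18, 174 and 36 reads, and Skil, or SnoN, a repressor of Smad activity, had 1126, 239 and 497.

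**Figure D5:**
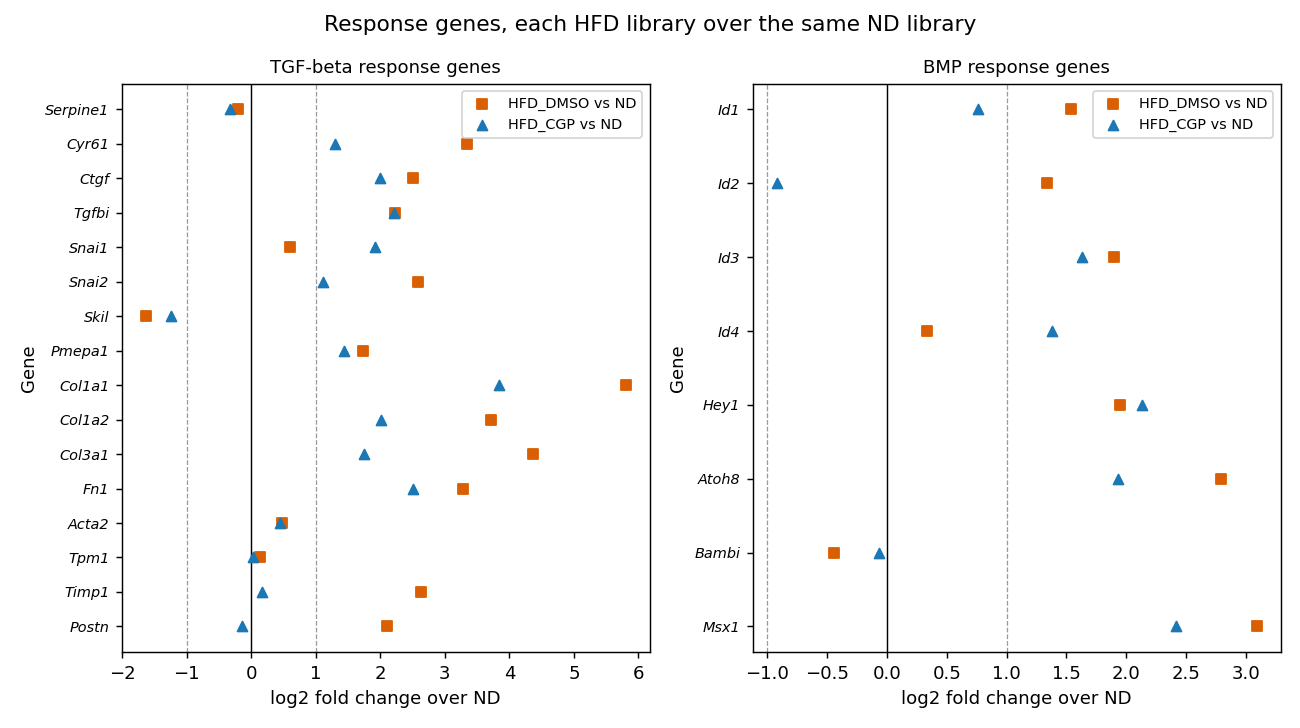
Log2 fold change over ND of genes known to respond to TGF-beta (left) and to BMP (right) in HFD_DMSO and HFD_CGP, for list genes with a read in every library and at least 20 reads in one. Col1a1 is at 5.80 in HFD_DMSO and 3.84 in HFD_CGP, Id3 at 1.90 and 1.63, and Skil lies below 0 in both.

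Of genes known to respond to TGF-beta in other cells, 12 of 17 were higher and 1 lower in HFD_DMSO than in ND, with a median of 2.51, and the GC-corrected folds called 12 up and 0 down. Among the 12, Lox, a collagen crosslinking enzyme, had 0, 43 and 16 reads, Fn1 6, 39 and 36, and Snai2 7, 28 and 16. These genes passed the read minimum only through the libraries in which they were high. They are named after their values were seen. In HFD_CGP against HFD_DMSO 1 of 18 was higher and 8 were lower, at a median of -0.75. In HFD_CGP against ND 10 of 18 were higher and 1 lower, 8 and 0 once GC-corrected. The 1 higher than in HFD_DMSO was Snai1, with 8, 8 and 32 reads, named after its values were seen. Snai1 was also among the 10, and in both comparisons it passed the read minimum only through HFD_CGP. Col1a1, a fibrillar collagen chain, had 11 reads in ND, 406 in HFD_DMSO and 166 in HFD_CGP. Cyr61, a matricellular protein, had 225, 1496 and 581 reads. Col1a1, Col1a2, Col3a1 and Acta2 are also on the stromal list, whose genes were higher in HFD_DMSO than in ND for 8 of 10, at a median of 4.92. The stromal gene Pdgfra had 3 reads in ND, 193 in HFD_DMSO and 52 in HFD_CGP. Pdgfra passed the read minimum only through the libraries in which it was high. So did Mmp2, also at 3 reads in ND and named after its values were seen. In HFD_DMSO over ND 2 of the 10 stromal genes were not called, among them Acta2 at 0.47, and Pdgfrb was at 1.96. The part of stromal cells in these values was not tested.

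Of genes known to respond to BMP, 6 of 9 were higher and 1 lower in HFD_DMSO than in ND, at a median of 1.54. Among the 6, Msx1, named after its values were seen, had 4, 23 and 23 reads. Msx1 passed the read minimum only through the libraries in which it was high. The lower gene, Hamp2, a hepcidin gene named after its values were seen, had 16, 0 and 0 reads and passed the read minimum only through ND. Id3, an inhibitor of helix-loop-helix factors, had 171 reads in ND, 419 in HFD_DMSO and 556 in HFD_CGP, and Id1, of the same family, had 239, 456 and 423. Both were lowest in ND, as was Smad6. Id2 had 368, 610 and 203 reads and was the 1 of 8 genes called in HFD_CGP against HFD_DMSO, at -2.35 (-2.59 to -2.12). In HFD_CGP against ND 5 of 9 were higher and 1, again Hamp2, lower.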

How the data were processed

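RNA of islets was made into libraries with a TruSeq kit, per the labels' protocols, and 3 tables, 1 for each pair of the 3 libraries, were deposited. Per the file headers each deposited table gives 2 group values (a normalized signal), a log2 fold change, a p-value and an adjusted p-value for each gene, with gene length and position. DESeq2 1.10.1 is named, per the submitters' processing notes. For the aligner, counter, strand setting and genome build, the answer is not given in the sources used here. The deposited group values were whole multiples of the value of 1 read: 99.68% to 99.97% of values came out within 0.1 of a whole read. An edgeR exact test on these reads at a dispersion of 0.04 gave the authors' deposited log2 fold changes and calls, with 0 calls differing.

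From the reads, TMM factors, fold changes with a prior count of 0.125, and exact conditional 95% intervals were computed in R (edgeR 4.0.16, R 4.3.3). These steps were tested on simulated data. Reads were recovered and results summarised in Python (Python 3.11.15, pandas 2.3.3, scipy 1.17.1). DESeq2 1.42.0 served for alternatives. GC content was found for 99.8% of 24119 gene IDs, and 44 of 46 members had the same coordinates in GENCODE M21 (GRCm38), whose exons gave the overlaps.

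The members and the lists were chosen with earlier results of these data known. Members with at least 20 reads in some library were named (34), except 1 that is not reported here. Of each list, up to 4 called genes with at least 100 reads over the pair could be named, by size of fold, with certain markers allowed throughout. Genes described as named after their values were seen stand outside this rule. Tll2, Hjv, Cripto, Lefty2, Chrdl1, Chrdl2 and Hamp were not analysed here. Alternatives covered scaling, call rule, read minimum, fold threshold, prior count and GC content.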

Additional observations from a re-analysis of the deposited data

How the results depend on the processing

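With 1 library per group no library could be left out. No paired analysis was possible because each group has 1 library. The number of members called was 21 in HFD_DMSO against ND, 8 in HFD_CGP against HFD_DMSO and 17 in HFD_CGP against ND. An edgeR exact test at a dispersion of 0.16 called 3 (Tgfb3, Bmp4 and Gdf10, all higher), 0 and 1 (Gdf10, higher) in that order. In HFD_CGP against HFD_DMSO the count was 18 with library totals, 2 by the authors' deposited table and by the exact test at a dispersion of 0.04, 3 by DESeq2's Wald test at that dispersion, 3 with at least 100 reads over the pair, 13 at 1.5-fold and 3 at 3-fold. In HFD_CGP against ND it was 8 with the GC correction, 11 by the authors' deposited table and by the exact test at a dispersion of 0.04, and 9 at 3-fold. With library totals the members' median moved from -0.08 to -0.62 in HFD_DMSO against ND and from 0.13 to 0.78 in HFD_CGP against HFD_DMSO; totals shift every log2 fold change there by -0.54 and 0.65. The cause of the other moves was not tested. No called member changed direction under another scaling, the GC correction or the authors' deposited call, among the 35 with at least 20 reads in some library. Under the GC correction 6 members lost a call in HFD_DMSO against ND, 9 in HFD_CGP against ND and 0 in HFD_CGP against HFD_DMSO. Depth limits the 11 members with fewer than 20 reads in every library.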
